A study of Mus musculus with 4 samples.

Results

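The coronins are a family of 7 mouse genes, Coro1a, Coro1b, Coro1c, Coro2a, Coro2b, Coro6 and Coro7, described here by their H3K27me3 in germinal center B cells, with Coro2a in the lead. The members were taken as the named family among 21887 protein-coding genes. Coro2a leads them because peaks at its start differed between genotypes in these same lists, so it was chosen by its covered share in the KO and WT lists, and its values are a description, with no test. H3K27me3, the trimethyl mark on lysine 27 of histone H3, was profiled with CUT&Tag, where a transposase held by an antibody cuts and tags nearby DNA. The groups were 2 knockout mice (KO) lacking Kdm6b, a demethylase that removes this mark, in B cells and 2 wild-type (WT) mice. All 4 were of the C57BL/6 strain and received sheep red blood cells, with a second dose on day 5 and death on day 12, and each gave 1 library from sorted spleen germinal center B cells. The series title calls the cells pre-plasma. The sources used here do not give the driver of the B-cell deletion, the deleted part of Kdm6b, or the age and sex of the mice.

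Coronins are actin-binding proteins built around a WD-repeat propeller. They hold or remodel actin filaments, in part by restraining the branching machine Arp2/3 and by guiding cofilin, which cuts filaments. Coro1a is the coronin of blood cells and is needed for normal T cell numbers, whereas Coro2a, also named IR10, is found in the nuclear corepressor complex NCoR. H3K27me3 is laid down by Polycomb repressive complex PRC2, often at CG-rich gene starts that are silent. The lists hold called peaks only, so a stretch without a peak is not shown to lack the mark, and RNA was not measured.

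In mm10, Coro2a (gene ID 107684) occupies chromosome 4 from 46536937 to 46601929 and is read from the minus strand, so its start is at the higher coordinate. RefSeq (GRCm38.p6, the assembly that mm10 denotes) gives it a second start 35489 bp inside the gene. The first sequences shown are the 300 bases around these starts, 250 before and 50 after, because peaks covered most or all of the outer stretch in both KO libraries and none of it in WT, and left the inner stretch bare in all 4. Those of Coro1a and Coro6 are shown as the blood cell relative with hardly any peaks and a relative marked throughout, and that of Coro1c as a relative with nearly as many CG steps as Coro2a. Sequences are from RefSeq, written 5′ to 3′ on the gene's strand, and capitals mark each CG.
Coro2a outer start, chr4:46601880-46602179, minus strand: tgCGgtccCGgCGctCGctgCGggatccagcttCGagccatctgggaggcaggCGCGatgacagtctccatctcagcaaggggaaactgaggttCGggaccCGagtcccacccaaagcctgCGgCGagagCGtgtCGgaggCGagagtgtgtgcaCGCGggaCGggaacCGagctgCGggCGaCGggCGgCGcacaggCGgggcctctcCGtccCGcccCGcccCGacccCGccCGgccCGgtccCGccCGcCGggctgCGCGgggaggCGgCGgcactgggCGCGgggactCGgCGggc
Coro2a inner start, chr4:46566391-46566690, minus strand: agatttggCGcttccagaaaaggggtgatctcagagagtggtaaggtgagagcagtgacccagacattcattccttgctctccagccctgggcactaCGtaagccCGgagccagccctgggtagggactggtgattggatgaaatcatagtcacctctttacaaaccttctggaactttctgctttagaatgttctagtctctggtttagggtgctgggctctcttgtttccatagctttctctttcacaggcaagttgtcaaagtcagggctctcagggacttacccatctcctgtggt
Coro1a outer start, chr7:126704767-126705066, minus strand: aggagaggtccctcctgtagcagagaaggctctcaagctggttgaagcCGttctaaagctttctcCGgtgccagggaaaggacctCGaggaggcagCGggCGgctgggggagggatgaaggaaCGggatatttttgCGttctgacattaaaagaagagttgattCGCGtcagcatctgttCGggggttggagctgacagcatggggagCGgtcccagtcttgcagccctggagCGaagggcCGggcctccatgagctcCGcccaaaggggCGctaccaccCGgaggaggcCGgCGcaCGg
Coro1c start, chr5:113908657-113908956, minus strand: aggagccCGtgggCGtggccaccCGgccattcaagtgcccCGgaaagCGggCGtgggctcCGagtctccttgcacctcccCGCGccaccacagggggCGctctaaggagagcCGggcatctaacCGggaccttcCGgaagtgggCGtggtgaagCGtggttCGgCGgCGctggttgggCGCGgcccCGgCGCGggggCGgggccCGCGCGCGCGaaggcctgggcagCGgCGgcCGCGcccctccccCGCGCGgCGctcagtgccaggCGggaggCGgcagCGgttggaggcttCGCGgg
Coro6 outer start, chr11:77462330-77462629, plus strand: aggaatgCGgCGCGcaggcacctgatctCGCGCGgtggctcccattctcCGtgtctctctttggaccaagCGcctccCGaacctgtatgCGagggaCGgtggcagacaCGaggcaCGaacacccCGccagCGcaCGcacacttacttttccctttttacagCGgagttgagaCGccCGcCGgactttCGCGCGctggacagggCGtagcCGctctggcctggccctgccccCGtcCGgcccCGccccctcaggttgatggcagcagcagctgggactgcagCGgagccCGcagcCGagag

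The Coro2a outer start held 43 CG in its 300 bases, a number reached by 2.61% of the 32851 windows in the RefSeq promoter table, whereas its inner start held 3, reached by 76.7%. The motif is CG, which reads the same on both strands, and 94.6% of the windows held at least 1. Coro1c had 42, Coro6 31 at its outer and 9 at its inner start, Coro2b 22, Coro1a 19 and 10, and Coro7 16. The order of these stretches by CG was not their order by peaks. The Coro1c stretch, with 42 CG, was covered to 0% and 37.3% in KO replicates 1 and 2, against 67.3% and 0% in WT replicates 1 and 2. The Coro2b stretch, with 22, had 99.3% and 100% in KO, against 100% and 83.0% in WT. Over the Coro2a outer stretch peaks covered 81.7% and 100% in KO libraries, against 0% in each WT library. The inner stretch had 0% in all 4.

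The libraries differed in breadth within each genotype, which bears on every share given here. Peaks covered 144 and 236 Mb in KO replicates 1 and 2, and 213 and 101 Mb in WT replicates 1 and 2. Read depth was unknown, so values carry no counting interval, and each SD is the spread between 2 mice, whose separate origin rests on the series description. Kdm6b itself (chromosome 11, 69398508 to 69420367) was covered over 41.3% and 66.6% of its body in KO and 49.6% and 36.7% in WT. A peak map does not show the deleted exons, so this does not check the genotype. With a gene end called marked where peaks covered at least 25% of its 4 kb, 2, 3, 1 and 0 of 15 germinal center B markers were marked in KO replicate 1, KO replicate 2, WT replicate 1 and WT replicate 2, and 11 of 15 in none. Over all 21887 genes the marked shares were 33.5%, 46.3%, 40.8% and 26.3% in the same order, and 49.1% were marked in none. Ms4a1, which encodes the B cell surface protein CD20 and is named after its values were seen, was marked in both KO and neither WT, as 1.2% of all genes were, with 33.5% and 41.9% in KO, against 0% and 14.3% in WT. T cell markers were marked at 6 and 8 of 10 in KO and 8 and 7 in WT, myeloid markers at 9 and 10 of 10 and 10 and 7, plasma cell markers at 2 and 4 of 7 and 2 and 2, NK markers at 2 and 4 of 6 and 3 and 1, and erythroid markers at 3 and 4 of 6 and 4 and 2. The mark gives no direct reading of other cells in the sort, and their part in the results below was not tested.

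At the Coro2a start, H3K27me3 peaks lay over most or all of the surrounding bases in KO libraries and over few or none in WT libraries. In the 4 kb window around the start, 2000 bp to each side, peaks covered 58.1% in KO replicate 1 and 100% in KO replicate 2, against 0% in WT replicate 1 and 12.5% in WT replicate 2. Each KO value exceeded each WT value, with means of 79.0% ± 29.6 in KO and 6.26% ± 8.86 in WT (SD, n = 2 each) and a difference of 72.8 points. This difference is what Coro2a was chosen for. Of the 4000 bases, 1950 were covered in both KO and neither WT, none the other way round, and 0 in all 4.

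**Figure D1:**
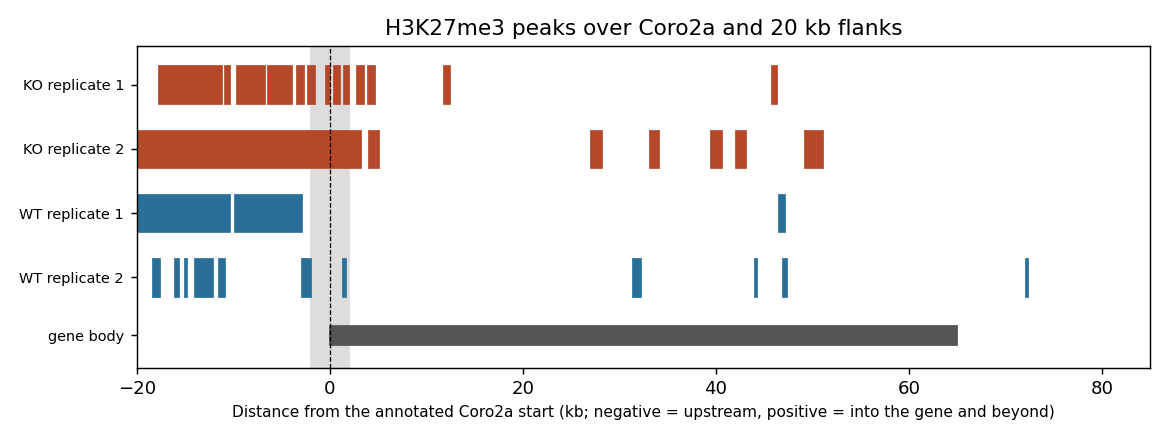
Each row is a library (KO in red above, WT in blue below) and each block a peak, placed by its distance in kb from the annotated Coro2a start, with the gene body as a grey bar and the 4 kb start window shaded. Peaks upstream of the start are present in all 4 libraries, while those that fill the shaded window are in KO replicates 1 and 2, apart from a 446 bp peak and the edge of another in WT replicate 2.

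The peaks around the start were parts of a wider marked stretch upstream. In KO replicate 2 a single peak of 24927 bp ran from 21684 bp upstream to 3242 bp inside the gene, and it was wider than 99.7% of the peaks in that list. KO replicate 1 had a chain of shorter peaks, of which 5 of 466 to 845 bp lay from 471 bp upstream to 4704 bp inside the gene. In WT replicate 1 a peak of 7089 bp, wider than 94.8% of its list, ended 2855 bp before the start, and the next peak inside the gene was 46433 bp away. WT replicate 2 had a peak of 1090 bp ending 1946 bp before the start and a peak of 446 bp beginning 1205 bp after it. From the start itself, the nearest peak was 6 bp away in KO replicate 1 and overlapped it in KO replicate 2, against 2855 bp in WT replicate 1 and 1205 bp in WT replicate 2.

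Ranked by highest signal within its own list, the KO replicate 2 peak over the start stood above 96.5% of peaks. The 5 KO replicate 1 peaks stood above 55.2% to 92.4%. The 446 bp peak of WT replicate 2 stood above 42.6% of its list. Signal was on an unknown scale that differed between lists, so these ranks describe each list and are not compared between genotypes.

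Followed in steps of 5 kb, the genotypes overlapped well upstream and parted towards the gene. From 15 to 10 kb upstream the covered share was 88.4% and 100% in KO and 94.1% and 59.0% in WT. From 10 to 5 kb upstream it was 90.5% and 100% in KO and 98.9% and 0% in WT, so the groups overlapped there. In the last 5 kb before the start it was 62.9% and 100% in KO and 42.9% and 21.8% in WT. In the first 5 kb of the gene it was 61.1% and 85.3% in KO and 0% and 8.92% in WT, and the groups were apart in both of these steps. From 5 to 10 kb inside the gene hardly any bases were covered in any library, with 0% and 1.0% in KO and 0% in both WT.

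Over the whole 20 kb upstream, peaks covered 74.4% and 100% in KO and 84.0% and 27.1% in WT, so WT replicate 1 lay between the KO libraries. Of those 20000 bases, 3678 were covered in all 4 libraries and 886 in both KO and neither WT. That stretch holds the finish of the neighbouring gene Tbc1d2, whose nearer end lies 2461 bp from Coro2a.

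Past its first few kb, the body of Coro2a held scattered short peaks. From 45 to 50 kb inside the gene all 4 libraries had some, with 14.2% and 18.1% covered in KO and 14.3% and 10.4% in WT. The whole body was covered over 6.85% and 16.7% in KO, against 1.10% and 3.42% in WT, again without overlap, as in 12.3% of the 13805 gene bodies with coverage, which nothing is read from. This body difference of 9.53 points was 3.68 at equal covered length, with 5.79% and 4.99% in KO and 0% and 3.42% in WT, and 4.59 without KO replicate 2. Of its 64993 bases, 50085 were covered in no library, 2290 in both KO libraries alone, and 302 in both WT libraries alone. All of the 2290 lay within the first 10 kb, where the number of such bases was also 2290. In the 4 kb around the inner start, KO replicate 2 had 14.3% and the other 3 libraries 0%. At the finish of the gene no library had a peak within the 4 kb window, and in the 20 kb beyond it the sole peak was 1 of 332 bp in WT replicate 2.

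The blood cell relative Coro1a (gene ID 12721, chromosome 7, 126699774 to 126704816, minus strand) had hardly any peaks in either genotype. KO replicate 1 had a single peak of 994 bp just inside the start and WT replicate 1 a single peak of 1022 bp beginning 2553 bp into the gene, and KO replicate 2 and WT replicate 2 had none over the gene or 20 kb to each side. Its start window was covered to 24.9% and 0% in KO, the first of them just under the 25% at which a gene end was called marked, against 0% in both WT. In KO replicate 1 that peak covered 13.7% of the 300 bases at the outer start. It covered 100% of those at a second start 596 bp inside. KO replicate 2 and both WT libraries had 0% at each. Both peaks were weak for their lists, with a highest signal above 8.39% of peaks in KO replicate 1 and 2.34% in WT replicate 1. Taking each library by itself, the Coro2a start exceeded the Coro1a start by 33.2 and 100 points in KO and by 0 and 12.5 points in WT. The mean over the 4 libraries was 36.4 points, and 15.3 without KO replicate 2.

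Coro1b (gene ID 23789, chromosome 19, 4148611 to 4154035), which encodes a widely expressed coronin that acts on Arp2/3 at the leading edge of moving cells, was the barest of the family. No library had a peak over its body or its 20 kb flanks. Measured from its lower-coordinate end, the nearest peak was 120023 to 148702 bp away.

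Coro1c (gene ID 23790, chromosome 5, 113842439 to 113908706, minus strand), another widely expressed coronin, resembled Coro2a in having a marked stretch upstream but its groups overlapped at the start. In the 20 kb upstream peaks covered 38.8% and 75.0% in KO and 62.0% and 20.1% in WT. At the start window they covered 0% and 25.3% in KO and 17.8% and 0% in WT, so each genotype had a library with and a library without. The 2 libraries with peaks there were those with the largest covered length, KO replicate 2 and WT replicate 1, and the part of that in the values was not tested. The body was covered over 1.58% and 5.33% in KO and over 0% and 1.57% in WT.

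**Figure D2:**
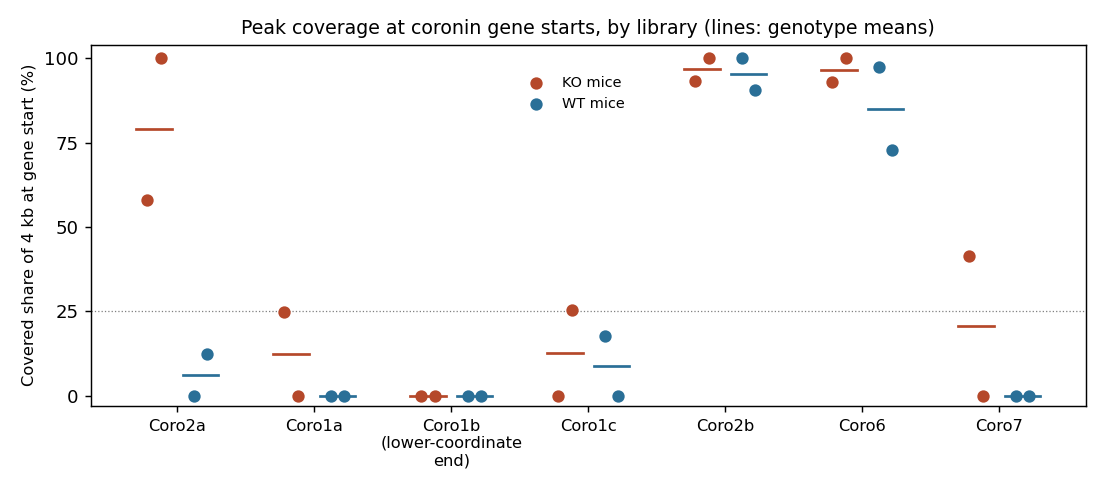
Covered share in % of the 4 kb window at the start of each coronin gene, taken at the lower-coordinate end for Coro1b, with 1 point per library (KO left in red, WT right in blue), a line at each genotype mean and a dotted line at the 25% used to call a gene end marked. Coro2b and Coro6 stand above 70% in all 4 libraries, and Coro2a is the gene whose KO points, 58.1% and 100%, stand apart from its WT points, 0% and 12.5%.

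Coro2b, the closest relative of Coro2a by name and class and a coronin best known from neural tissue, was marked in every library. The gene (gene ID 235431) lies on chromosome 9 at 62419490 to 62537044 on the minus strand. Its start window was covered to 93.3% and 100% in KO, against 100% and 90.7% in WT, and the groups overlapped. Its body was covered over 14.5% and 21.6% in KO and over 19.9% and 8.64% in WT, and the 4 kb at its finish to 59.7% and 51.9% in KO, against 79.4% and 34.1% in WT. At equal covered length the finish had 16.0% and 0% in KO and 28.5% and 34.1% in WT. Each KO value there lay below each WT value, in a setting where WT replicate 2 keeps all its peaks. The share of all gene ends with this order was not counted at equal covered length, so nothing is read from it. Within each library, the Coro2a start minus the Coro2b start was -35.3 points in KO replicate 1 and 0 in KO replicate 2, against -100 points in WT replicate 1 and -78.2 in WT replicate 2.

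Coro6 (gene ID 216961, chromosome 11, 77462321 to 77470484, plus strand), a coronin known from muscle, carried peaks over most or all of its length. They covered 91.1% and 100% of its body in KO and 93.8% and 82.5% in WT. Its start window had shares of 92.8% and 100% in KO, against 97.4% and 72.8% in WT. Peaks continued past its finish, with 48.0% and 91.5% of the next 20 kb covered in KO and 75.2% and 34.2% in WT. In KO replicate 2 a single peak of 18361 bp took in the whole gene, and WT replicate 2 had 3 peaks over it.

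Coro7 (gene ID 78885, chromosome 16, 4626884 to 4679720, minus strand), a coronin of the Golgi apparatus with a doubled propeller, had few peaks. A peak of 1656 bp just inside the start gave KO replicate 1 a start window share of 41.4%, against 0% in KO replicate 2 and in both WT libraries. That peak stood above 28.3% of its list by highest signal. The body was covered over 3.13% and 2.10% in KO and over 0% in both WT, so the groups did not overlap, but different peaks made up the KO values. Each KO value exceeded each WT value in 12.3% of the 13805 gene bodies with coverage, so nothing is read from this. At equal covered length all 4 libraries had 0% over the start and the body.

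**Figure D3:**
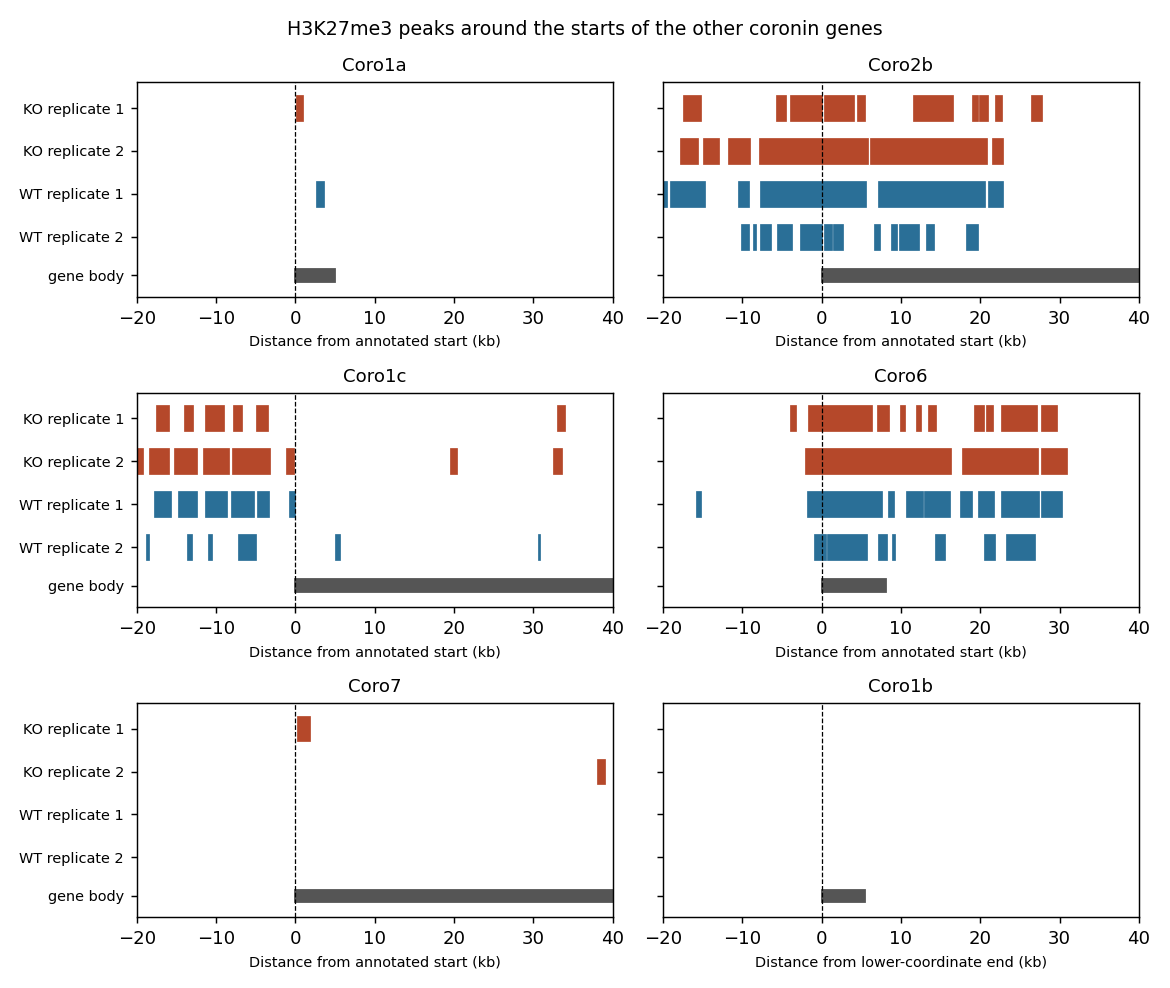
Peaks of each library (KO in red above, WT in blue below) by distance in kb from the annotated start of 5 coronins and from the lower-coordinate end of Coro1b, whose strand is not given, with the gene body as a grey bar. Coro1b has no peak and Coro1a and Coro7 have isolated ones, Coro1c has peaks upstream of its start in all 4 libraries, and Coro2b and Coro6 are marked across their starts in both genotypes.

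Across the family, gene ends were marked in 4 and 4 of 7 members in the KO libraries and in 2 and 2 of 7 in the WT libraries, at the end with the higher mean coverage. Both KO counts include Coro2a, which was chosen for its difference. They also include Coro7 in KO replicate 1 alone (41.4%) and Coro1c in KO replicate 2 alone (25.3%). The gap between these counts is therefore not read as a result about the family. Over all 21887 genes the marked shares were 33.5% and 46.3% in KO and 40.8% and 26.3% in WT. Coro2b and Coro6 made up the pair marked in every library, as 24.1% of all genes were. Coro1a and Coro1b were marked in none, as 49.1% of all genes were. Coro2a was the single member marked in both KO and neither WT, a pattern found in 1.2% of all genes at this end and in 0.914% at the higher-coordinate end, and nothing is read from this, as the pattern chose it. Without KO replicate 1 Coro1c also had the pattern, and without KO replicate 2 Coro7 did.

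None of the 6 relatives passed the test of genotype at either end or over the body. Fitted with limma over all gene ends with coverage in any library, 0 of 10353 windows at the higher-coordinate end and 0 of 10438 at the lower-coordinate end passed an adjusted p of 0.05 (0% in each direction). Before adjustment, a p under 0.05 was reached by 335 higher-end windows that were higher in KO and 52 that were lower, and by 365 and 57 lower-end windows. That split moved with the libraries and their covered length. It was 232 and 144 at the higher end and 229 and 157 at the lower end with covered length as a covariate, and 239 and 118, and 235 and 135, at equal covered length. Without WT replicate 2 more windows were lower than higher in KO, with 242 higher and 683 lower at the higher end and 241 and 718 at the lower end. With any other library left out, 379 to 1703 were higher and 43 to 285 lower. At the start, KO minus WT was 20.7 points for Coro7 (SE 17.5), 12.4 for Coro1a (SE 11.0), 11.3 for Coro6 (SE 11.3), 3.76 for Coro1c (SE 13.4) and 1.33 for Coro2b (SE 6.17), each with a limma adjusted p of 0.905 or above. Each SE is that of limma, which draws the spread of a window towards that of all tested windows, so it is not the spread between mice alone. Coro1b had no coverage and was not tested. Over gene bodies 2 of 13805 genes passed, both higher in KO (0.0145%, and 0% lower), and neither was a coronin. Coro2a was fitted along with all genes, but as it was chosen for its difference, its own outcome is no test. With 2 mice per genotype these p-values do not show that the mark was alike in KO and WT. At 13.8% of the 10353 windows at the higher-coordinate end each KO value exceeded each WT value, and at 2.33% each was below.

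Among the genes within 200 kb of Coro2a, both on the side of its start were marked in every library, whereas 5 of the 6 on the side of its finish had little or no coverage in KO replicate 1 and in both WT libraries. Tbc1d2, which encodes a GTPase-activating protein for Rab proteins, had 98.9% and 100% at its start in KO and 100% in both WT. At its finish, which faces the Coro2a start, it had 53.7% and 100% in KO and 40.2% and 27.3% in WT. This window shares part of its bases with the 4 kb at the Coro2a start. Gabbr2, a subunit gene of the GABA-B receptor, had 83.1% and 82.6% at its start in KO and 81.1% and 82.5% in WT.

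On the other side, nearest to farthest, Trim14, Nans, Anp32b, Hemgn, Trmo and Foxe1 follow. Of these, Trmo, Hemgn and Anp32b had 0% at both ends and over the body in all 4 libraries. They encode a transfer RNA methyltransferase, a nuclear protein of blood-forming cells and a histone chaperone. Nans, a sialic acid synthase gene, had 9.13% of its body covered in KO replicate 2 and 0% in KO replicate 1 and both WT. Trim14, an adaptor gene of antiviral signalling that lies 787 bp past the finish of Coro2a, had 38.3% at its lower-coordinate end in KO replicate 2 and 0% there in KO replicate 1 and both WT. Foxe1, a forkhead transcription factor gene of thyroid development and 191163 bp away, was the marked exception, with 90.8% and 89.8% of its body covered in KO and 89.2% and 54.6% in WT.

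The genes whose 4 covered shares lay closest to those of Coro2a were Cd40, Ifit1, Tmprss4, Lyg2 and Tssc4, by straight-line distance over the 4 libraries at the more covered gene end. The distances were 14.6, 19.9, 22.2, 23.2 and 29.4 percentage points. Cd40, the receptor for T cell help, had 57.0% and 92.6% in KO and 0% in both WT. Ifit1, an antiviral interferon-induced gene, had 58.2% and 84.6% in KO and 0% in both WT. Tmprss4, a membrane serine protease gene, had 41.4% and 98.4% in KO and 11.8% and 21.2% in WT. Lyg2, a lysozyme-like gene, had 70.7% and 89.0% in KO and 15.9% and 10.1% in WT, and Tssc4, in the Kcnq1 imprinted domain, had 63.4% and 74.1% in KO and 12.1% and 17.2% in WT. All 5 were chosen for this likeness and lie on chromosomes 2, 19, 9, 1 and 7.

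Marking of the actin machinery that coronins act on varied from gene to gene. Of 10 Arp2/3, 13 cofilin pathway and 16 WASP and WAVE genes, 5, 4 and 8 were marked in no library and 1, 2 and 4 in every library, against 49.1% and 24.1% of all genes. No gene of the Arp2/3, cofilin or WASP and WAVE lists was marked in both KO and neither WT, or the reverse, against 1.2% and 0.187% of all genes. Each KO value exceeded each WT value in 1 of the 6 Arp2/3 genes with coverage at the more covered end, 3 of 10 such cofilin pathway genes and 3 of 10 such WASP and WAVE genes, against 14.4% of all 13844 such genes. The opposite held for 1 of these 10 cofilin pathway genes and for none of the other two lists, against 2.26%. The median KO minus WT differences, genes without coverage included, were 3.72, 11.1 and 0 points, against 0 over all genes. None of these genes passed limma at either end, as 0% of all tested windows did, so nothing is read from this.

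Within the Arp2/3 list, Arpc5, a subunit of the complex, had 69.1% and 45.8% in KO and 36.3% and 15.6% in WT. The actin-related Actr3b had 58.5% and 77.0% in KO and 78.2% and 31.1% in WT, with overlapping groups. Actr2 and Actr3, the actin-like core of the complex, had 12.3% and 32.8% in KO replicate 2 and 0% in KO replicate 1 and both WT, so 1 library alone carried their coverage. In the cofilin list, Cfl1, the cofilin of most cells, had 32.2% and 21.3% in KO and 0% in both WT. Ssh2, a phosphatase that activates cofilin, had 58.2% and 49.0% in KO and 44.9% and 23.0% in WT. Wdr1, a cofactor of filament disassembly chosen after its values were seen, had 17.5% and 4.68% in KO and 0% in both WT. These 3 were the cofilin pathway genes with KO above WT and no overlap. Dstn, which encodes destrin, a relative of cofilin, lay the other way, with 35.6% and 29.1% in KO and 68.0% and 41.5% in WT. Gmfg, which acts on Arp2/3 branches, had 12.6% and 83.8% in KO and 35.8% and 0% in WT.

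Among the activators of Arp2/3, the WAVE gene Wasf1 had 56.5% and 53.1% in KO and 46.5% and 17.9% in WT. Wasf2, the WAVE gene of most tissues, had 21.7% and 28.7% in KO and 17.1% and 0% in WT. Nckap1l, the WAVE complex subunit of blood cells, had 62.7% and 87.1% in KO and 59.8% and 45.7% in WT at its higher-coordinate end. In these 3 the KO values lay above the WT values without overlap. Cyfip1, another subunit, had 0% and 72.7% in KO and 98.1% and 31.1% in WT. In the NCoR complex, to which Coro2a belongs, the subunit genes Gps2 and Hdac3 had 45.0% and 14.2% in KO replicate 2 and 0% in KO replicate 1 and both WT, and Ncor1 had 0% in all 4.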

How the data were processed

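H3K27me3 peak lists from 4 libraries were used, 1 per library and not pooled. Per the submitters' processing notes, the tools were SEACR, deepTools, Bowtie2 2.4.2, SAMtools 1.11 and Trim Galore 0.6.6, with mm10. The sources used here do not give their roles and settings, the peak threshold or the scale. The deposited columns hold peak positions and 2 signal values, the total and the highest per peak, read by the column order of SEACR. Signal was used only to rank peaks within a list.

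Only peaks on autosomes, X and Y entered. The share of bases under peaks was computed for 4 kb at each gene end, gene bodies, 20 kb flanks and the 300 bases at RefSeq starts. Gene extents came from RefSeq on GRCm38.p6, and strands, known for 17492 of 21887 protein-coding genes and 6 of 7 coronins, from its promoter table. Positions of exons, introns and UTRs were not used. A peak counted where it overlapped by 1 bp. Shares of all genes with coverage in any library were fitted with limma 3.58.1 (lmFit and eBayes, R 4.3.3, Benjamini-Hochberg, threshold 0.05). The code was also run on simulated data whose spread was mostly set smaller than that of these lists. That run checks the sign and size of planted differences, and cannot show power or false calls in these data. Tables used Python 3.11.15, numpy 2.4.6 and pandas 2.3.3, and figures matplotlib 3.10.9.

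The members, lists and tests were chosen with earlier results of these data known. Named genes were the 7 coronins, protein-coding genes within 200 kb of Coro2a, the 5 genes most like it (other than predicted genes and chemosensory receptors) and at most 4 per actin or NCoR list, by size of difference. Wdr1 and Ms4a1 were added after their values were seen. Of the NCoR list, 1 gene and the counts over the list are not reported here. Replicate numbers only name libraries. Alternatives were other window widths, stricter peaks, equal covered length, covered length as a covariate, no coverage filter, other marking thresholds, another overlap rule and each library left out.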

Additional observations from a re-analysis of the deposited data

How the results depend on the processing

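The Coro2a start difference of 72.8 points was 78.7 with 1000 bp to each side, 58.9 with 5000 bp, 79.0 with stricter peaks, the 50% of each list with the highest maxima, and 51.8 to 93.7 with a library left out. At equal covered length it was also 72.8, since the KO peaks in that window outranked the limit, WT replicate 1 had none there, and WT replicate 2, the shortest list, keeps all its peaks by construction. The Coro2a minus Coro1a mean of 36.4 points was 42.7 at equal covered length, 39.5 with stricter peaks and 15.3 to 48.6 with a library left out. The count of 1 member marked in both KO and neither WT was 1 at 50% covered, 0 at 10%, where WT replicate 2 counts as marked, and 1 to 2 with a library left out. These omissions were added after the data were seen. With no filter on coverage limma called 18 windows at the lower-coordinate end, 11 at the higher-coordinate end and 8 gene bodies. The 2 gene bodies called were 0 with covered length as a covariate (before adjustment, 352 higher and 394 lower with p under 0.05), 1 at equal covered length, which was lower in KO with none higher, and 0 with any library left out (119 to 1445 higher and 30 to 412 lower). No coronin was among the calls of any of these fits, which for Coro2a, chosen for its difference, is no test. For the other coronin windows, 17 of 146 alternative differences had the opposite sign and 9 moved by more than the spread between mice. No paired analysis was possible because the replicate numbers were given in accession order and pair no mice. Read depth is unknown, and a peak list does not show signal under the caller's threshold.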
